A study of Homo sapiens with 6 samples.

Results

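The 10 genes described here belong to WNT signalling: the ligands WNT5A and WNT5B, the Frizzled receptors FZD1, FZD2, FZD7 and FZD8, the Dickkopf genes DKK1 and DKK3, the feedback gene AXIN2 and the transcription factor gene TCF7L2. They were chosen by symbol from a table of 36884 genes, each symbol stood on 1 row, and all 10 were among the 13431 genes with enough counts to be tested. The table holds 6 RNA-seq libraries of RPE1, a non-transformed human epithelial line of retinal pigment origin, in which LATS1 and LATS2, the YAP- and TAZ-inhibiting kinases of the Hippo pathway, had been disrupted with CRISPR-Cas9. That disruption is shared by all 6 libraries, so no library here has intact LATS kinases, and whether the line is 1 clone is not given in the sources used here. In 3 libraries the cells had received MK5 siRNA, against the protein kinase encoded by MAPKAPK5, and in the other 3 control siRNA, in each case for 48 h.

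WNT proteins are secreted lipid-modified ligands that bind Frizzled receptors. With the coreceptors LRP5 or LRP6 they stabilise beta-catenin, which then acts on TCF and LEF transcription factors at target genes such as AXIN2. WNT5A and WNT5B mostly act without beta-catenin, through Frizzleds together with ROR1, ROR2 or RYK, while DKK1 blocks LRP5 and LRP6 from outside the cell. In the mouse eye, beta-catenin signalling is needed for the retinal pigment epithelium to keep its identity.

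AXIN2 and FZD8 rose after MK5 siRNA, by 4.83-fold and 4.76-fold. DKK1 and WNT5B fell, to 0.309 and 0.434 of their control level. The remaining 6 genes, WNT5A, FZD1, FZD2, FZD7, DKK3 and TCF7L2, did not pass the test over 3 libraries a group. Thus 2 rose and 2 fell, 40% of the 10, where 46.2% of all tested genes passed, with 22.5% higher and 23.7% lower. The same 4 changed by at least 2-fold, as did 22.3% of all tested genes. The median log2 fold change was -0.14 over the 10 and 0.00031 over all tested genes. The libraries of the groups did not overlap in 5 of the 10, against 60.4% of all tested genes. The share that passed was near that of all tested genes. The share that also changed by at least 2-fold was higher, but it rests on 4 of 10 genes chosen with earlier results of these data known.

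Levels are CPM, the counts of a gene scaled to a common library total. A log2 fold change is MK5 siRNA over control siRNA with its standard error (SE) from edgeR's quasi-likelihood fit. The adjusted p is edgeR's, corrected over all 13431 genes, and a gene passed when it was below 0.05. MAPKAPK5, the target of the siRNA, stood at 17.4, 14.1 and 16.2 CPM in MK5 siRNA replicates 1, 2 and 3, against 35.5, 29.03 and 31.3 CPM in the controls. It fell by 1.01 on the log2 scale (SE 0.14, edgeR adjusted p = 0.00169). The libraries held 27188074 to 28236773 counts. Replicate 1 stood apart from replicates 2 and 3, most of all among the controls: the chi-square of counts per degree of freedom was 27.9 and 33.7 between replicate 1 and the others with MK5 siRNA and 160.2 and 165 with control siRNA, but 4.19 and 6.29 between replicates 2 and 3. The submitters call the libraries biological replicates, but the sources used here do not say that they came from separate cultures. The p-values measure the spread between these libraries, which may be technical. In the fits without replicate 1 of both groups, given below, only replicates 2 and 3 of each group remain. The p-values of those fits rest on the smaller spread between replicates 2 and 3. They are not stronger evidence than the p-values over all 6 libraries. Fits without control replicate 1 likewise keep only control replicates 2 and 3. Of 6 markers of simple epithelium 3 (KRT7, KRT8 and KRT18) were at 1 CPM or more in every library, with EPCAM at 0 and CDH1 below 1 CPM, and the list summed to 399 to 590.0 CPM with MK5 siRNA and 766 to 846 CPM with control siRNA. Of 11 markers of retinal pigment epithelium 2 (MITF and OTX2) reached 1 CPM in every library, with TTR at 0 and RPE65, RLBP1 and TYR below 1 CPM, and the list summed to 59.6 to 67.3 CPM with MK5 siRNA and 86.7 to 99.4 CPM with control siRNA. MITF stood at 22.4 to 29.1 CPM with MK5 siRNA and 51.0 to 58.7 CPM with control siRNA. OTX2 stood at 34.1 to 35.8 CPM with MK5 siRNA and 29.5 to 34.7 CPM with control siRNA. Of 7 mesenchymal markers 5 reached 1 CPM in every library, and the list summed to 3826 to 4632 CPM with MK5 siRNA and 4498 to 5150.4 CPM with control siRNA, most of it VIM, at 3305 to 3785 CPM with MK5 siRNA and 3469 to 4416 CPM with control siRNA. Within that list COL1A1 stood at 131 to 294 CPM with MK5 siRNA and 39.7 to 67.7 CPM with control siRNA, and THY1 at 74.9 to 82.6 CPM with MK5 siRNA and 249 to 425 CPM with control siRNA. The 4 endothelial markers summed to 0.471 to 1.06 CPM with MK5 siRNA and 1.66 to 4.98 CPM with control siRNA, with PECAM1 at 0. All 5 blood markers were below 1 CPM in every library, summed at 0.348 to 0.474 CPM with MK5 siRNA and 0.183 to 0.295 CPM with control siRNA. The part of these marker differences in the results was not tested. In bulk libraries fewer cells with a transcript and less of it per cell cannot be told apart.

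Promoter sequences are shown for the members that passed and for which RefSeq starts were at hand, because TCF7L2 and its relatives bind DNA at words such as CTTTGT and CTTTGA and the YAP partners TEAD bind GGAATG. The RefSeq table (GRCh38.p14) held 10 start sites for 6 of the genes and none for AXIN2. Each line gives the 250 bases before a start, 5′ to 3′ on the gene's strand, with these words in capitals on either strand. DKK1 lies on the plus strand at chr10:52314031-52314280, FZD8 on the minus strand at chr10:35642297-35642546, and WNT5B has 2 listed starts on the plus strand, at chr12:1616806-1617055 and chr12:1628981-1629230.
DKK1: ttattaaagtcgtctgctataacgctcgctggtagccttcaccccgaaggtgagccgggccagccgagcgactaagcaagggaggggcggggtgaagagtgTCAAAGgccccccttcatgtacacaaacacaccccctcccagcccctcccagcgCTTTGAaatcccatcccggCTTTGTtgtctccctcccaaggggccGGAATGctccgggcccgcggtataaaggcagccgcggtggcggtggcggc
FZD8: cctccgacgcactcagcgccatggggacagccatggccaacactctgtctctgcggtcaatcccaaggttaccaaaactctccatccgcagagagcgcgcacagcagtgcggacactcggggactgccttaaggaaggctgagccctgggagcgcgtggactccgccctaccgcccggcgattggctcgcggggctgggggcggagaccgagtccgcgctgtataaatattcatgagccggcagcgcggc
WNT5B, upstream start: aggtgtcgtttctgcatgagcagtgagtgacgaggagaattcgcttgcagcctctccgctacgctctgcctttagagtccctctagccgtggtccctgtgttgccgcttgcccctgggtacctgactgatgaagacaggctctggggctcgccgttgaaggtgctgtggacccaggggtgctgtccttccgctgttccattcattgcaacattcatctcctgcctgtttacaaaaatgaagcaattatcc
WNT5B, downstream start: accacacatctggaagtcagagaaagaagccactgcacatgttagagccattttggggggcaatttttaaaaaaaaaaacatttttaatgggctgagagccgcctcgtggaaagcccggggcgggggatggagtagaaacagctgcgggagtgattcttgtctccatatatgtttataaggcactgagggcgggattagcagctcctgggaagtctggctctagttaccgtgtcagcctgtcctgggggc

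The DKK1 window held CTTTGT 76 bases and CTTTGA 95 bases upstream of the start, the reverse complement of CTTTGA 149 bases upstream and GGAATG 50 bases upstream. None of these words overlap. The windows of FZD8 and both windows of WNT5B held none of the 3 words. Of all 35116 windows in the table, 22.8% held CTTTGT or CTTTGA on either strand, 0.584% held at least 3 of them and 11.9% held GGAATG. The cut of 3 equals the number in the DKK1 window, so its share cannot test whether that window is unusual. Among the other windows of the 10 genes, CTTTGT occurred once each in that of FZD1 and in 1 of the 3 of TCF7L2, and the windows of WNT5A held none. These matches describe letters only, and which start was used in these cells was not measured.

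Of the 2 ligands, WNT5B fell and WNT5A did not pass. WNT5B (ENSG00000111186) had 87.1, 81.9 and 78.1 CPM in MK5 siRNA replicates 1, 2 and 3, against 222, 173 and 174 CPM in control replicates 1, 2 and 3. Every MK5 siRNA library lay below every control library, and the spread was narrow with MK5 siRNA. The mean was 82.3 ± 4.53 CPM with MK5 siRNA and 189.7 ± 27.9 CPM with control siRNA (SD, n = 3 each), a log2 fold change of -1.20 (SE 0.13, edgeR adjusted p = 0.000761). By pair of equal replicate number, the differences were -1.34, -1.07 and -1.15 on log2(CPM + 0.5).

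WNT5A (ENSG00000114251), the close relative of WNT5B, had 102, 142 and 131 CPM with MK5 siRNA, against 139, 182 and 163 CPM with control siRNA. The groups overlapped, since MK5 siRNA replicate 2 lay above control replicate 1, although each replicate pair moved downward, by 0.44, 0.36 and 0.31 on the log2(CPM + 0.5) scale. The log2 fold change was -0.37 (SE 0.16) and did not pass (edgeR adjusted p = 0.102). With the replicate number as a block it passed, at -0.37 (edgeR adjusted p = 0.0284), as it did without replicate 1 of both groups, at -0.33 (edgeR adjusted p = 0.00016). Within each library the log2 ratio of WNT5A to WNT5B was 0.59 ± 0.31 with MK5 siRNA and -0.23 ± 0.39 with control siRNA (SD, n = 3 each). The difference of 0.82 did not reach significance in a two-sided exact permutation test (p = 0.1, the smallest that 3 against 3 allows; 0.133 adjusted over 4 pairs of genes), and the libraries did not overlap. WNT5A and WNT5B transcripts of GENCODE 29 share no run of 50 bases.

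**Figure D1:**
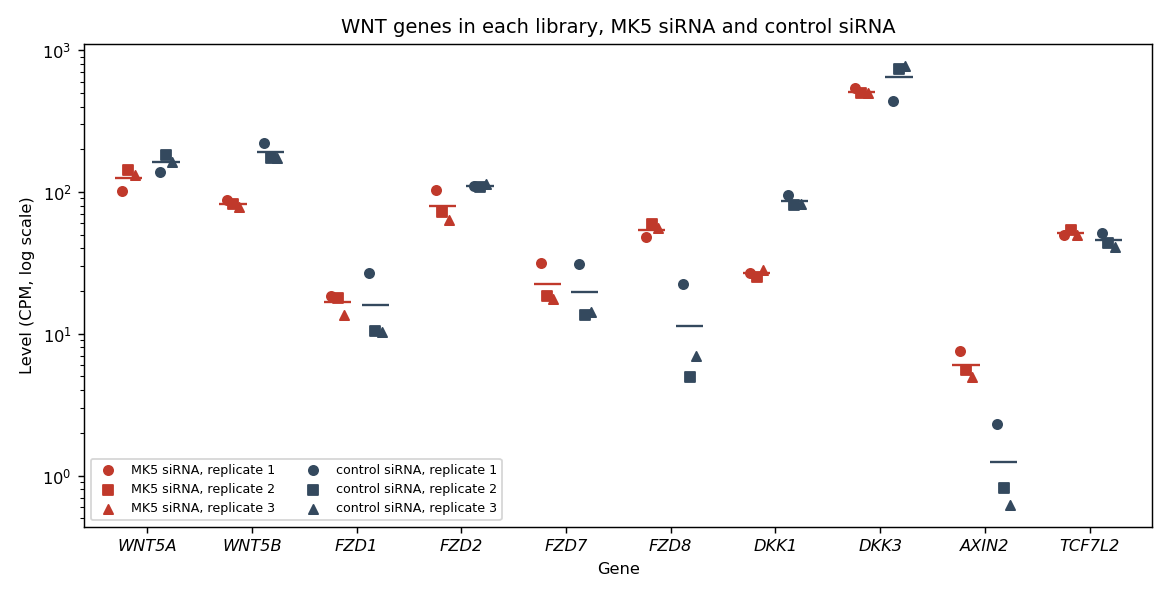
Level of each of the 10 genes in CPM (log axis) in every library, MK5 siRNA at the left and control siRNA at the right of each gene; symbols mark replicates 1, 2 and 3 and lines the means of 3. DKK1 and WNT5B lie lower and FZD8 and AXIN2 higher in all 3 MK5 siRNA libraries, and control replicate 1 (dark circles) lies away from the other controls in FZD1, FZD7, FZD8, DKK3 and AXIN2.

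Among the Frizzleds, the membrane receptors of WNT ligands, FZD8 rose and the other 3 did not pass. FZD8 (ENSG00000177283) had 48.3, 58.9 and 55.6 CPM in MK5 siRNA replicates 1, 2 and 3, against 22.2, 4.97 and 7.02 CPM in control replicates 1, 2 and 3. All MK5 siRNA libraries lay above all controls, and control replicate 1 lay well above the other controls. The log2 fold change was 2.25 (SE 0.53, edgeR adjusted p = 0.0128) over all libraries, 3.18 without control replicate 1 (edgeR adjusted p = 6.84e-06) and 3.26 without replicate 1 of both groups (edgeR adjusted p = 2.73e-15). Pair by pair the differences were 1.10, 3.44 and 2.90 on log2(CPM + 0.5).

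FZD2 (ENSG00000180340), the Frizzled with the highest level per length of these 4, had 102, 71.8 and 63.2 CPM with MK5 siRNA, against 110.5, 107 and 113 CPM with control siRNA. The groups did not overlap, but MK5 siRNA replicate 1 lay close to the controls. The log2 fold change of -0.48 (SE 0.18) did not pass (edgeR adjusted p = 0.0686). It was -0.71 without MK5 siRNA replicate 1 (edgeR adjusted p = 0.00862), -0.70 without replicate 1 of both groups (edgeR adjusted p = 2.14e-08), and also passed without control replicate 1, at -0.47 (edgeR adjusted p = 0.0493).

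FZD7 (ENSG00000155760), a close relative of FZD1 and FZD2, had 31.7, 18.6 and 17.5 CPM with MK5 siRNA, against 30.9, 13.6 and 14.1 CPM with control siRNA. FZD1 (ENSG00000157240) had 18.5, 17.7 and 13.6 CPM with MK5 siRNA, against 27.0, 10.5 and 10.3 CPM with control siRNA. In both genes control replicate 1 was the highest control, so that the groups overlapped. The log2 fold changes were 0.21 (SE 0.38) for FZD7 and 0.06 (SE 0.39) for FZD1, and neither passed (edgeR adjusted p = 0.683 and 0.908). Without control replicate 1 they were 0.71 and 0.68 (edgeR adjusted p = 0.0394 and 0.00593), and without MK5 siRNA replicate 1 they were -0.12 and -0.02. Both changed sign when control replicate 2, control replicate 3 or MK5 siRNA replicate 1 was left out.

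Because a gene of longer exons yields more counts, the Frizzleds were set side by side per kilobase of exon. The 9 Frizzleds tested, the 4 above with FZD3, FZD4, FZD5, FZD6 and FZD9, summed to 115, 95.7 and 89.3 CPM per kb in MK5 siRNA replicates 1, 2 and 3, against 108, 89.9 and 92.3 CPM per kb in the controls. The sum did not differ beyond its spread (two-sided exact permutation test, p = 0.7). FZD8 took 10.4%, 15.3% and 15.4% of the sum with MK5 siRNA, against 5.10%, 1.37% and 1.89% with control siRNA. FZD2 took 42.0%, 35.5% and 33.5% with MK5 siRNA, against 48.3%, 56.6% and 57.9% with control siRNA. In both shares the groups did not overlap, and the differences of 10.9 and -17.3 percentage points each gave the smallest p the test allows (exact permutation p = 0.1; 0.225 adjusted over 9 shares). The small shares of FZD3 and FZD9, below 1% in every library, did not overlap either, at 0.316 ± 0.0150% and 0.422 ± 0.114% with MK5 siRNA and 0.0991 ± 0.0866% and 0.0931 ± 0.0243% with control siRNA (SD, n = 3 each). FZD6, at 35.1 ± 3.11% with MK5 siRNA and 31.1 ± 1.63% with control siRNA (SD, n = 3 each), was the other large share, and its difference of 3.96 percentage points was 0.088 when counts were not divided by length. FZD1 and FZD7 took 2.38 ± 0.248% and 5.74 ± 1.18% with MK5 siRNA and 2.29 ± 1.12% and 5.10 ± 2.00% with control siRNA.

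**Figure D2:**
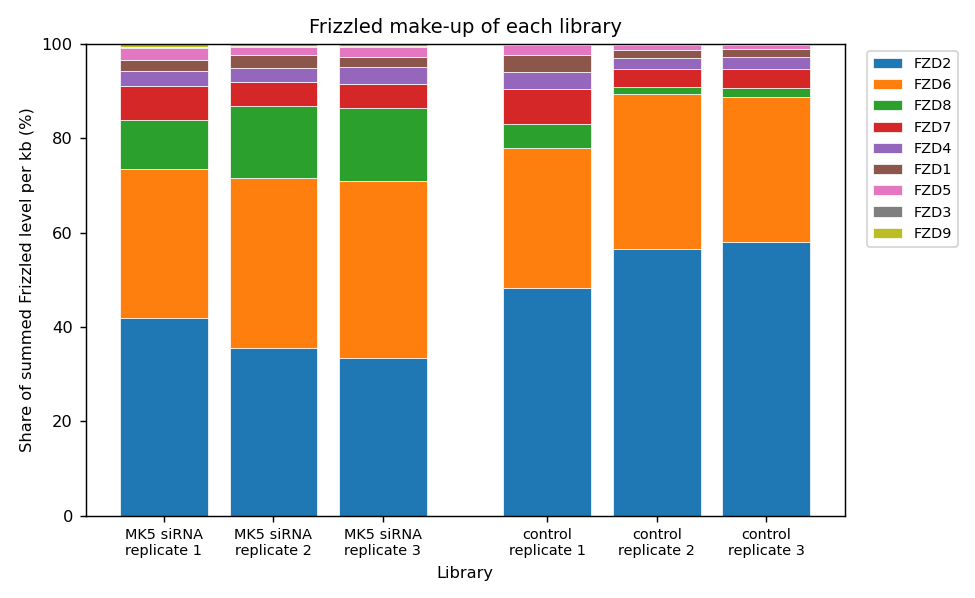
Share of each of 9 Frizzleds in the summed Frizzled level per kb of exon (%), 1 bar a library, the 3 MK5 siRNA libraries at the left. The FZD8 share is 10.4% to 15.4% with MK5 siRNA and 1.37% to 5.10% with control siRNA, while the FZD2 share is 33.5% to 42.0% with MK5 siRNA and 48.3% to 57.9% with control siRNA.

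The log2 ratio of FZD1 to FZD8 was -1.69 ± 0.32 with MK5 siRNA and 0.60 ± 0.37 with control siRNA (SD, n = 3 each), and the libraries did not overlap. The difference of -2.29 was again at the smallest exact permutation p of 0.1 (0.133 adjusted over 4 pairs). The ratio of FZD7 to FZD2, -1.81 ± 0.12 and -2.57 ± 0.65 on the log2 scale with MK5 and control siRNA (SD, n = 3 each), differed by 0.76 with overlapping groups (exact permutation p = 0.3). FZD1, FZD2 and FZD7 share few runs of 50 bases with transcripts of other genes, 0.463%, 2.67% and 0.525% of their own.

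DKK1 and DKK3 encode secreted proteins of the Dickkopf family. DKK1 (ENSG00000107984), which binds LRP5 and LRP6 and whose promoter sequence is given above, had 26.7, 25.1 and 28.2 CPM in MK5 siRNA replicates 1, 2 and 3, against 95.5, 81.1 and 82.8 CPM in control replicates 1, 2 and 3. Every MK5 siRNA library lay far below every control, and replicates agreed closely in both groups. The mean was 26.7 ± 1.59 CPM with MK5 siRNA and 86.4 ± 7.86 CPM with control siRNA (SD, n = 3 each), a log2 fold change of -1.70 (SE 0.12, edgeR adjusted p = 0.000209). In the pairs of replicates 1, 2 and 3 the differences were -1.82, -1.67 and -1.54 on log2(CPM + 0.5). An antisense gene, PRKG1-AS1, shares 9.61% of the DKK1 exon bases and averaged 18.2 counts, against 1542 for DKK1.

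DKK3 (ENSG00000050165), a divergent Dickkopf, had 538, 494.5 and 494 CPM with MK5 siRNA, against 439, 731 and 773 CPM with control siRNA. Control replicate 1 lay below all MK5 siRNA libraries and the other 2 controls above them, so that the groups overlapped. The log2 fold change of -0.35 (SE 0.21) did not pass (edgeR adjusted p = 0.218). It was -0.56 without control replicate 1 (edgeR adjusted p = 0.000372) and -0.60 without replicate 1 of both groups (edgeR adjusted p = 6.02e-09), while replicate pair 1 moved the other way, by 0.29 on log2(CPM + 0.5), against -0.56 and -0.65 in pairs 2 and 3. The log2 ratio of DKK1 to DKK3 was -4.23 ± 0.11 with MK5 siRNA and -2.86 ± 0.57 with control siRNA (SD, n = 3 each), lower in all 3 MK5 siRNA libraries than in any control (exact permutation p = 0.1, 0.133 adjusted over 4 pairs).

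AXIN2 (ENSG00000168646), a scaffold of the beta-catenin destruction complex that is itself induced by beta-catenin and TCF, rose. It had 7.55, 5.53 and 4.95 CPM in MK5 siRNA replicates 1, 2 and 3, against 2.30, 0.811 and 0.621 CPM in control replicates 1, 2 and 3. These rest on 207, 159 and 147 counts with MK5 siRNA and 60, 22 and 17 counts with control siRNA. The groups did not overlap, and replicate 1 was the highest library of each group. The log2 fold change was 2.27 (SE 0.49, edgeR adjusted p = 0.00926). The replicate pairs differed by 1.52, 2.20 and 2.28 on log2(CPM + 0.5), a scale that understates changes at this level. It was 3.06 without control replicate 1 (edgeR adjusted p = 6.54e-05) and 2.87 without replicate 1 of both groups (edgeR adjusted p = 2.3e-10). In GENCODE 29 a protein-coding gene, AC004805.1, covers 25.2% of the AXIN2 exon bases on the same strand. It has no row in the table, and how reads there were counted is not given in the sources used here.

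TCF7L2 (ENSG00000148737), which encodes the TCF4 factor that partners beta-catenin on DNA, had 50.1, 53.6 and 49.9 CPM with MK5 siRNA, against 51.7, 43.5 and 41.2 CPM with control siRNA. Control replicate 1 lay among the MK5 siRNA libraries. The log2 fold change of 0.17 (SE 0.12) did not pass (edgeR adjusted p = 0.281). It was 0.28 without control replicate 1 (edgeR adjusted p = 0.0158) and 0.29 without replicate 1 of both groups (edgeR adjusted p = 0.00111).

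**Figure D3:**
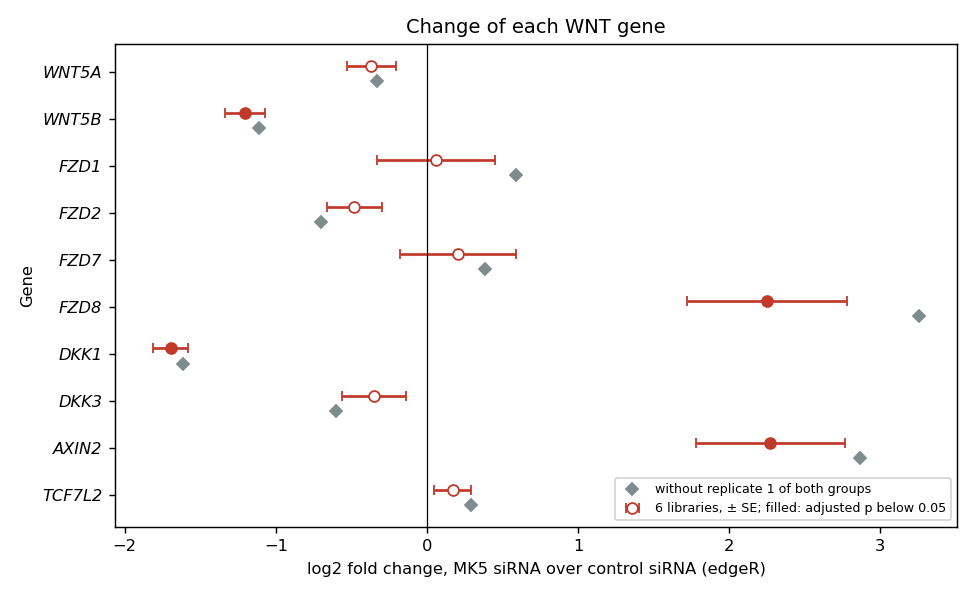
Log2 fold change of each gene, MK5 siRNA over control siRNA, with its SE over all 6 libraries (circles; filled where the adjusted p is below 0.05) and without replicate 1 of both groups (diamonds, no error shown). WNT5B and DKK1 lie between -1.70 and -1.20 and FZD8 and AXIN2 at 2.25 and 2.27. The diamonds of all genes but WNT5A, WNT5B and DKK1 lie farther from 0 than the circles.

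All 4 passing genes passed in each of the 13 other fits tried. WNT5B lay between -1.29 and -1.07 on the log2 scale in them, DKK1 between -1.76 and -1.61, FZD8 between 1.86 and 3.26 and AXIN2 between 1.33 and 3.06. Without control replicate 1, and likewise without replicate 1 of both groups, all 10 genes passed, 5 higher (AXIN2, FZD8, FZD1, FZD7 and TCF7L2) and 5 lower (DKK1, WNT5B, FZD2, DKK3 and WNT5A), but 64.4% and 75.8% of all tested genes then passed too. A count of 10 of 10 is therefore to be read against a background that also grew.

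Set in order of level per kilobase of exon, DKK3 came first in both groups, at 101 ± 4.94 CPM per kb with MK5 siRNA and 128 ± 36.0 CPM per kb with control siRNA (SD, n = 3 each, here and below). FZD2 followed at 37.5 ± 9.75 and 52.2 ± 1.31 CPM per kb with MK5 and control siRNA. Next with MK5 siRNA were WNT5B at 19.1 ± 1.05, WNT5A at 16.9 ± 2.77, FZD8 at 13.5 ± 1.35 and DKK1 at 12.1 ± 0.719 CPM per kb, and the library ranges of neighbours in that order overlapped. With control siRNA the order was WNT5B at 44.1 ± 6.47, DKK1 at 39.2 ± 3.56 and WNT5A at 21.8 ± 2.89 CPM per kb. The control libraries of WNT5B overlapped those of DKK1 and of FZD2, and those of WNT5A lay below them. TCF7L2, FZD7 and FZD1 lay at 7.60 ± 0.305, 5.85 ± 2.04 and 2.39 ± 0.380 CPM per kb with MK5 siRNA and at 6.75 ± 0.818, 5.07 ± 2.55 and 2.29 ± 1.38 with control siRNA. The libraries of TCF7L2 and FZD7 overlapped in both groups, and those of FZD7 and FZD1 overlapped with control siRNA. FZD8 ranked 8 of 10 with control siRNA, at 2.83 ± 2.34 CPM per kb, where its libraries overlapped those of FZD7 and FZD1, and 5 of 10 with MK5 siRNA. AXIN2 was lowest in both groups, at 1.15 ± 0.261 CPM per kb with MK5 siRNA and 0.238 ± 0.176 CPM per kb with control siRNA.

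The other genes of the pathway were read from lists by role. Of 134 listed genes beside the 10, 89 were tested, 25 rose, 16 fell and 48 did not pass. That is 46.1%, against 46.2% of all tested genes, and the median log2 fold change was 0.21. The counts of every list below are to be read against the 22.5% of all tested genes that rose and the 23.7% that fell. Of the 41 that passed, 23 passed in all 6 fits that left out 1 library. WNT11, FZD9, SFRP4, CD44, SCRIB, DVL1, DVL2, DVL3, TCF7, TCF7L1, TLE1, CTNNB1, DKK2 and KREMEN1 are named below to complete a count or a family. WNT7B, FZD3, FZD5, LGR4, TLE3 and MYC are named because the replicate block changed their call. All were chosen after their values were seen, as were CSNK1A1, CSNK1D, CSNK1G1 and CSNK1G2, named to complete the count of transducers.

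Of 6 other ligands tested, WNT2B and WNT11 rose, WNT10B and WNT3 fell, and 2 did not pass. WNT2B had 3.21 ± 0.224 CPM with MK5 siRNA and 0.348 ± 0.0932 CPM with control siRNA (SD, n = 3 each), a log2 fold change of 3.19 (SE 0.28). WNT10B had 0.498 ± 0.118 CPM with MK5 siRNA and 3.23 ± 0.537 CPM with control siRNA, at -2.68 (SE 0.29), and WNT3 changed by -0.59 (SE 0.16; edgeR adjusted p = 0.000383, 0.000722 and 0.0228 for the 3 genes). WNT3 did not pass without MK5 siRNA replicate 2 or 3 (edgeR adjusted p = 0.102 and 0.0902). WNT11 held 72 counts in the MK5 siRNA libraries together and 3 in the controls, a ratio of 22.5 with an exact 95% counting interval of 7.40 to 112 (edgeR adjusted p = 0.00249). Both WNT2B and WNT11 are low in level, and WNT11 rests on few counts. WNT7B, one of the 2 that did not pass, passed with the replicate block (edgeR adjusted p = 0.142 without and 0.0252 with the block). PORCN, the enzyme that attaches the lipid to WNT proteins, rose by 1.07 (SE 0.29, edgeR adjusted p = 0.0202), the only one of 4 tested maturation genes to pass. It did not pass when any MK5 siRNA library was left out (highest edgeR adjusted p = 0.0621).

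Of 5 other Frizzleds tested, FZD9 rose by 2.23 (SE 0.43, edgeR adjusted p = 0.00599) at 1.01 ± 0.420 CPM with MK5 siRNA and 0.211 ± 0.0566 CPM with control siRNA (SD, n = 3 each). The other 4 did not pass, but FZD3 and FZD5 did with the replicate block, at 1.95 and 0.72 on the log2 scale (edgeR adjusted p = 0.0384 and 0.0236). Among 5 tested coreceptors, LRP6 rose by 0.74 (SE 0.15), ROR1 rose by 0.85 (SE 0.25) and LRP5 changed by -0.60 (SE 0.17; edgeR adjusted p = 0.00661, 0.0303 and 0.0239). ROR1 lost its call in 4 and LRP5 in 2 of the 6 fits that left out 1 library (highest edgeR adjusted p = 0.0877 and 0.0986), among them those without MK5 siRNA replicate 2 or 3. RSPO3, a secreted protein that strengthens WNT signalling through LGR receptors, had 74, 84 and 85 counts with MK5 siRNA, against 1, 2 and 3 counts with control siRNA. Its ratio was 38.0, with an exact 95% counting interval of 17.2 to 105 (edgeR adjusted p = 0.000211). It was the only one of 3 tested genes of the R-spondin module to pass, and the receptor gene LGR4, at -0.62 (edgeR adjusted p = 0.0595), passed with the replicate block (edgeR adjusted p = 0.00817).

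The list of other antagonists holds mostly secreted proteins, and among the rest are the Dickkopf receptors KREMEN1 and KREMEN2. Of its 5 tested genes 3 fell and none rose, where 23.7% of all tested genes fell and 22.5% rose. Like the other lists, it was chosen with earlier results of these data known. DKK2 and KREMEN1 did not pass, at -0.49 and 0.14 on the log2 scale (edgeR adjusted p = 0.256 and 0.669). SFRP1, a secreted decoy that binds WNT proteins and Frizzleds, had 771, 807 and 776 CPM in MK5 siRNA replicates 1, 2 and 3, against 2297, 2456 and 2531 CPM in the controls. The groups lay far apart, with a log2 fold change of -1.63 (SE 0.10, edgeR adjusted p = 0.000201). KREMEN2 changed by -0.98 (SE 0.22) and SFRP4, below 1 CPM, by -1.77 (SE 0.60; edgeR adjusted p = 0.0113 and 0.046). SFRP4 did not pass with the replicate block (edgeR adjusted p = 0.0525) and lost its call in 4 of the 6 fits that left out 1 library (highest edgeR adjusted p = 0.158), and gave -2.85 without MK5 siRNA replicate 1.

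In the cytoplasm, 9 of 24 transducers rose, 2 fell and 13 did not pass, where 22.5% of all tested genes rose and 23.7% fell. CXXC4, which binds Dishevelled, rose by 2.09 (SE 0.27), TNKS, the tankyrase that marks AXIN proteins for degradation, by 1.35 (SE 0.12) and FRAT2, a GSK3-binding protein, by 1.24 (SE 0.28; edgeR adjusted p = 0.00136, 0.00037 and 0.0113). AMER1, an APC-binding scaffold, changed by -1.92 (SE 0.40, edgeR adjusted p = 0.00768), and by -1.22 without replicate 1 of both groups. FRAT2 gave 0.81 without replicate 1 of both groups. The Dishevelled genes, which relay the Frizzled signal, split: DVL3 rose by 0.67 (SE 0.14) and DVL1 by 0.60 (SE 0.18), and DVL2 changed by -1.17 (SE 0.12; edgeR adjusted p = 0.00893, 0.0292 and 0.000625). DVL1 lost its call in 5 of the 6 fits that left out 1 library, all but that without control replicate 1. The casein kinase genes CSNK1A1, CSNK1D and CSNK1G2 rose too and lost their call in the same 5 fits. CSNK1G1, which also rose, lost its call without MK5 siRNA replicate 1. CTNNB1, which encodes beta-catenin, had 288 ± 43.0 CPM with MK5 siRNA and 397 ± 71.6 CPM with control siRNA (SD, n = 3 each) and did not pass (log2 fold change -0.47, SE 0.17, edgeR adjusted p = 0.0594). With the replicate block it passed, at -0.46 (edgeR adjusted p = 0.015), and it was lower with MK5 siRNA in all 3 replicate pairs.

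In the nucleus, 3 of 14 factors rose, 4 fell and 7 did not pass. LEF1, a relative of TCF7L2, had 4.01, 4.34 and 3.63 CPM with MK5 siRNA, against 32.0, 12.5 and 13.01 CPM with control siRNA, a log2 fold change of -2.26 (SE 0.40, edgeR adjusted p = 0.00418), or -1.67 without control replicate 1. The other relatives TCF7 and TCF7L1 rose by 0.97 (SE 0.26) and 0.92 (SE 0.23; edgeR adjusted p = 0.0191 and 0.0169). TCF7 lost its call in 2 and TCF7L1 in 3 of the 6 fits that left out 1 library (highest edgeR adjusted p = 0.0709 and 0.0713). The corepressor gene TLE3, at 0.64 (edgeR adjusted p = 0.131), passed with the replicate block (edgeR adjusted p = 0.0425). HBP1, a repressor of TCF activity, rose by 1.55 (SE 0.12), while BCL9, a coactivator of beta-catenin, changed by -1.22 (SE 0.14), the corepressor gene TLE1 by -0.70 (SE 0.10) and CTNNBIP1, which blocks beta-catenin from TCF, by -1.22 (SE 0.39; edgeR adjusted p = 0.000247, 0.000978, 0.00217 and 0.0398). CTNNBIP1 overlapped between groups, at 16.1 CPM in control replicate 1, and did not pass with the replicate block (edgeR adjusted p = 0.0712) or when any library other than control replicate 1 was left out (highest edgeR adjusted p = 0.117).

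Of the 10 tested genes listed as other WNT targets, 3 rose, 2 fell and 5 did not pass. Genes listed under another role were not counted here, among them AXIN2, which rose, and DKK1 and LEF1, which fell. DACT1, a Dishevelled-binding protein, rose by 2.23 (SE 0.46), the Notch ligand gene JAG1 by 1.60 (SE 0.13) and ID2 by 1.36 (SE 0.34; edgeR adjusted p = 0.00768, 0.000282 and 0.0156). CCND1, cyclin D1, changed by -1.97 (SE 0.34) and CD44 by -0.55 (SE 0.14; edgeR adjusted p = 0.0041 and 0.0157). CCND1 had 2603, 1083 and 1157 CPM in control replicates 1, 2 and 3. Its log2 fold change lay between -2.21 and -1.43 with 1 library left out. ID2 and CD44 each lost the call in 3 of the 6 fits that left out 1 library, at an edgeR adjusted p of up to 0.0542 and 0.0564. MYC, at -0.46 (edgeR adjusted p = 0.291), passed with the replicate block (edgeR adjusted p = 0.0173). Over the 10 tested targets the median was -0.19 on the log2 scale. DACT1 gave 1.59 without replicate 1 of both groups. In the planar polarity and noncanonical branch, 3 of 13 rose and 2 fell. The atypical cadherin gene CELSR3 rose by 2.41 (SE 0.22), the formin gene DAAM1 by 0.75 (SE 0.25) and INVS, inversin, by 0.53 (SE 0.13), and DAAM2 changed by -1.59 (SE 0.25) and SCRIB by -0.48 (SE 0.16; edgeR adjusted p = 0.000456, 0.0457, 0.0148, 0.00255 and 0.0423). DAAM1 and SCRIB did not pass with the replicate block (edgeR adjusted p = 0.0821 and 0.0813), and DAAM1, INVS and SCRIB lost the call in 4, 3 and 5 of the 6 fits that left out 1 library.

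**Figure D4:**
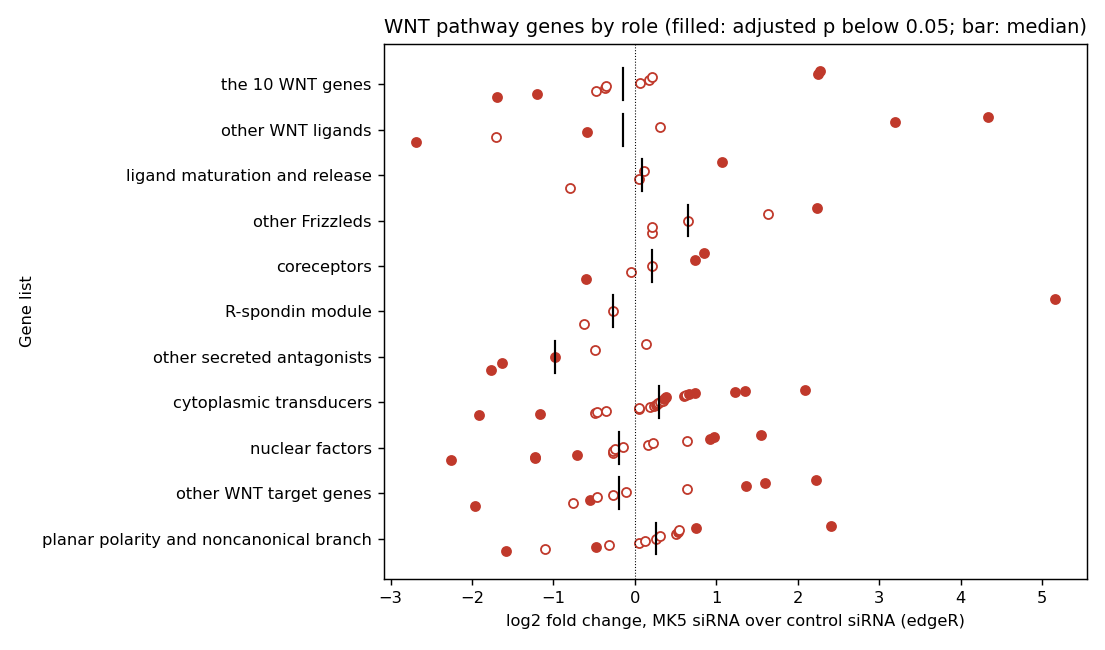
Log2 fold change, MK5 siRNA over control siRNA, of the 10 genes and of 89 other WNT pathway genes by role; filled circles passed at an adjusted p below 0.05 and vertical bars are the medians of the genes tested in a list. Most lists hold genes on both sides of 0, with RSPO3 at 5.17 farthest to the right. Among the antagonists no filled circle lies above 0. The ligand maturation, other Frizzled and R-spondin lists each hold 1 filled circle, which lies above 0.

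Across the 6 libraries, the genes most like AXIN2 in log2(CPM + 0.5), among 10473 genes of at least 5 CPM, were NAMPT, NR1D1 and NBAS, each with Pearson's r of 0.999. As many as 755 genes reached 0.95. The genes most like WNT5A were ATP8A2 (r = 0.99), PDIA3 (r = 0.984) and MTMR11 (r = 0.98), and 41 genes reached 0.95. These correlations describe libraries that share the treatment contrast and the deviation of replicate 1.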

How the data were processed

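RNA was measured in 6 libraries, 3 with MK5 siRNA and 3 with control siRNA, grouped by the sample titles. Tools listed, with no order or settings, in the submitters' processing notes are HTSeq 0.9.1, TopHat2 2.1.1, Trimmomatic 0.36 and FastQC, with genome build GRCh37. The kit was TruSeq V2, per the labels' protocols, and the strand setting of the counting is not given in the sources used here. The deposited values are whole-number counts, 1 column a library, although the table is named for CPM.

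In R 4.3.3, edgeR 4.0.16 kept genes by filterByExpr (minimum count 10, minimum total 15), scaled libraries by TMM and fitted the quasi-likelihood test, with Benjamini-Hochberg adjustment over all genes tested. The SE is the log2 fold change over the square root of F. CPM use the TMM-scaled totals. Exon lengths are unions of GENCODE 29 exons. Single ratios and shares had exact permutation tests in scipy 1.17.1. The fitting code was tested on simulated data. Intervals cover counting error only.

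Deviations from the group means correlated at 0.258, 0.206 and 0.248 between libraries of replicate numbers 1, 2 and 3, and same-numbered libraries were treated as pairs in the block; the labels give no reason for the pairing. Replicates 2 and 3 also correlated across groups, at 0.182 and 0.151.

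The genes and lists were chosen with earlier results of these data known. Named beside the 10 genes are MAPKAPK5, up to 4 passing genes a list with the largest change among those averaging 1 CPM or more, and the 3 genes most like AXIN2 and WNT5A; genes named beyond this rule are given as such in the results. Alternatives were RLE size factors, DESeq2 1.42.0, no filter on low counts, limma 3.58.1 with pseudocounts 0.5 and 2, a replicate block, each library left out, and replicate 1 of both groups left out.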

Additional observations from a re-analysis of the deposited data

How the results depend on the processing

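With the replicate block, 2 of the 10 genes rose and 3 fell, WNT5A being added, and the block changed no other call among the 10. Beside the 4 pathway genes named above as lost with the block, CSNK1D and CSNK1G2 also lost their call (edgeR adjusted p = 0.0702 and 0.0559), while WNT7B, FZD3, FZD5, LGR4, CTNNB1, TLE3 and MYC gained one, leaving 25 pathway genes higher and 17 lower. Leaving out 1 library gave 2 to 5 of the 10 higher and 2 to 5 lower, 15 to 44 other pathway genes higher and 10 to 24 lower, and 2064 to 4455 of all genes higher and 2103 to 4419 lower. Without replicate 1 of both groups, 5 of the 10 rose and 5 fell, as did 43 and 31 other pathway genes and 5195 and 5177 of all genes; the cause was not tested. FZD1 ranged from -0.20 to 0.68 and FZD7 from -0.12 to 0.71 on the log2 scale with 1 library left out, so their direction was not stable. The difference in the FZD1 share of Frizzled level ranged from -0.25 to 0.74 percentage points with 1 library left out and was -0.27 without division by length, which also gave 0.088 for FZD6, 0.802 for FZD3, 1.10 for FZD5, 0.178 for FZD4, 0.123 for FZD7 and 0.208 for FZD9 (3.96, 0.217, 0.727, 0.41, 0.637 and 0.329 with it), and that in the FZD7 share ranged from -0.047 to 1.79. RLE factors, DESeq2, no filter and both pseudocounts changed no call among the 10. Some calls of other pathway genes did change. FZD3 passed with DESeq2 (DESeq2 adjusted p = 0.0243) and with pseudocount 0.5 (limma adjusted p = 0.0266), and LGR4 with DESeq2 (DESeq2 adjusted p = 0.0389). CSNK1A1, CSNK1D and CSNK1G2 lost their call with no filter (edgeR adjusted p = 0.0644, 0.06 and 0.0839). CTNNBIP1 lost it with pseudocount 0.5 (limma adjusted p = 0.0774). These are examples only. AXIN2 rests on 17 to 60 counts in the control libraries, which limits the precision of its fold change.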
